A study of Mus musculus with 20 samples.

Results

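The genes described here are Cables2, Rbbp8nl, Colec11, Fcgrt, Vwce, 1700001P01Rik, Adamtsl4, Nlrp12, St5 and Ccdc84, 10 of the 22556 protein-coding genes in a table of newly made RNA from mouse embryonic stem cells. They were chosen by name because their value after 2 h of the drug DRB is above their value without drug, so that difference is given here as a description and was not tested. Several were also chosen because they lie beside a strongly transcribed gene (Rps21, Rps7, Rpl23 or Mcl1), so that neighbourhood is a description too. All 10 were found in the table under these names, on 7 chromosomes. Without drug they had between 0.0687 and 17.2 reads per kilobase (kb), and after 2 h of DRB each was between 1.80 and 173.5 times that value.

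The cells were E14, a wild-type mouse embryonic stem cell line, grown in serum with leukaemia inhibitory factor on gelatin. They received 100 µM DRB for 2 h or 5 h, 10 µM triptolide for 1 h or 2 h, or no drug. A 10 min pulse of 150 µM 4-thiouridine then marked new RNA, which was captured and sequenced, and cells given no 4-thiouridine served as background. Each of the 5 conditions had 2 labelled and 2 unlabelled samples, 20 in all, but the deposited table has 1 column per condition. Its unit is reads per kilobase of gene, and negative values were replaced by 0. No spread between replicates can be computed from it, and no result below carries a test or a p-value. All cells are of 1 line. A smaller number of transcribing cells, or fewer reads sequenced, cannot be told apart from less new RNA per cell.

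DRB inhibits CDK9, the kinase that lets paused RNA polymerase II move on into the body of a gene, while polymerases already past that point can continue. Triptolide binds the XPB subunit of TFIIH and blocks initiation. A short pulse of 4-thiouridine marks RNA made during the pulse, so that signal over a gene reports transcription through it, whichever promoter the polymerase came from. Polymerase II normally transcribes past the polyadenylation site of a gene before it is released from the template.

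Over all genes, 1221059 net reads were recovered without drug, 327052 at 2 h and 92985 at 5 h of DRB, and 72035 at 1 h and 60591 at 2 h of triptolide. A net read is a whole read left after the authors' subtraction, recovered from the step size of each gene's values. After 2 h of DRB, 66.1% of the 8773 genes with a value above 1 in some condition were lower by at least 1 on the scale log2(value + 1), and the median difference from no drug was -1.27. With column medians made equal, which shifts that median by 1.02, the counts over these genes were 1148 higher and 2026 lower, against 193 higher and 5800 lower as deposited. All 10 listed markers of pluripotent stem cells were above that filter, and their summed value was 198 reads per kb after 2 h of DRB, against 419 without drug. Of these 10, 1 was higher after 2 h of DRB by at least 1 log2 unit, 4 were lower and 5 changed less. Over all genes past the filter, 2.20% were higher and 66.1% lower by that size. The higher marker, Dppa5a, was listed at 0 without drug and passed the filter only through its 6.22 reads per kb after 2 h of DRB. Of the listed markers of other cell types, 1 of 8 liver genes, 1 of 7 blood genes, 2 of 7 endothelial genes and 2 of 9 fibroblast genes passed the filter. Their summed values after 2 h of DRB were 1.24 for liver, 1.32 for blood, 1.25 for endothelium and 1.41 for fibroblasts, against 0.151, 1.24, 3.67 and 1.25 reads per kb without drug in that order. The liver gene past the filter was Apoa1, an apolipoprotein, with values of 1.06 at 2 h of DRB and 1.59 at 1 h of triptolide, and listed at 0 in the other columns. The part of these cell types in the values below was not tested.

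Against this general loss, 9 of the 10 genes were higher after 2 h of DRB by at least 1 log2 unit, a size that 2.20% of the genes past the filter reached in that direction. The rule chose the genes on this contrast, so nothing is read from the count. Their median log2 difference was 1.91. Together they held 2777 net reads after 2 h of DRB, against 598 without drug, which was 0.849% of all net reads after 2 h of DRB and 0.049% without drug. In all, 596 genes past the filter had a higher value after 2 h of DRB than without drug. Of the 10 genes, 5 passed the filter through other columns, and 5 (Rbbp8nl, Colec11, Fcgrt, Vwce and Adamtsl4) passed only through the DRB columns, so their inclusion already required a high DRB value.

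**Figure D1:**
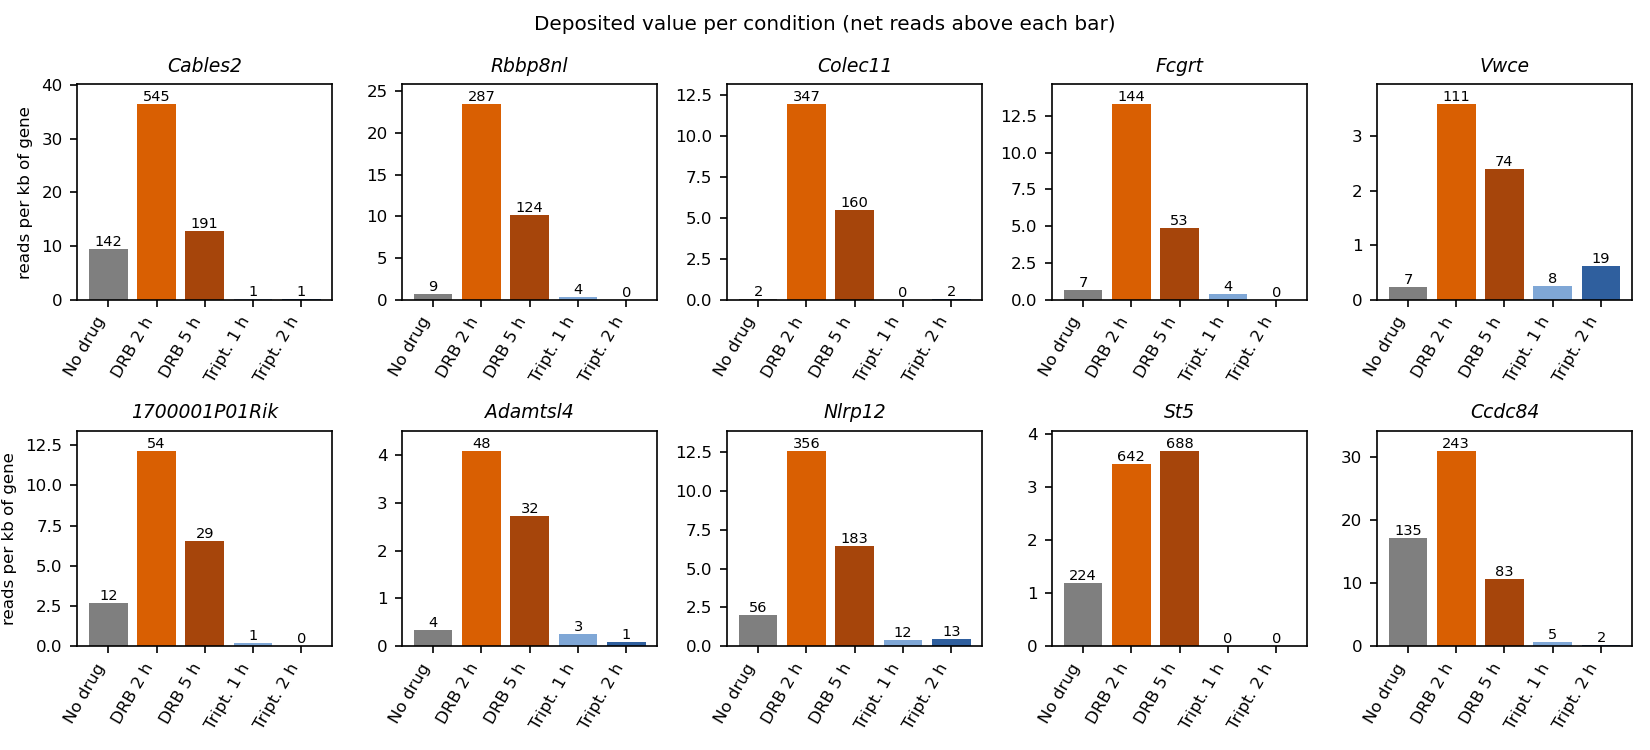
Deposited value (reads per kb of gene, 1 bar per condition, no error bars because there is 1 value per condition) of the 10 genes, with the net reads above each bar. Each axis starts at 0 and has its own scale. Every gene has its highest bar in a DRB column, at 2 h in all but St5, and no triptolide bar exceeds 0.638 reads per kb.

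Rbbp8nl and Cables2 lie next to each other on chromosome 2 and share a strongly transcribed neighbour. Cables2 (chr2:180258540-180273496, minus strand, GRCm38) encodes a relative of the cell cycle regulator Cables1. It had 9.49 reads per kb without drug, 36.4 at 2 h and 12.8 at 5 h of DRB, and 0.0669 after both times of triptolide. It thus had clear signal in untreated stem cells, and whether that signal began at its own promoter was not tested. Its 545 net reads after 2 h of DRB against 142 without drug give a ratio of 3.84 (95% counting interval 3.19 to 4.65). Here and below such an interval is the exact interval of a ratio of 2 Poisson counts. It covers counting error only and is therefore too narrow. It takes no account of differences between replicates, of library depth or of the background subtraction.

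Rbbp8nl (chr2:180277646-180289879, minus strand), named for its likeness to the DNA end resection factor Rbbp8, had 0.736 reads per kb without drug, 23.5 at 2 h and 10.1 at 5 h of DRB, 0.327 at 1 h of triptolide and 0 at 2 h. Unlike Cables2 it was close to silent without drug, with 9 net reads, against 287 after 2 h of DRB (ratio 31.9, 16.6 to 70.5). Downstream of both, in the opposite orientation, is Rps21, a small ribosomal subunit protein gene. Its 3′ end is 94 bases from the 3′ end of Cables2 and 19.2 kb from that of Rbbp8nl. Rps21 itself was lower, with 56.2 reads per kb after 2 h of DRB, against 130 without drug. Farther along, 35.3 kb beyond Rbbp8nl, Gata5, a transcription factor of the endoderm and heart, was listed at 0 without drug and had 3.76 reads per kb at 2 h and 3.66 at 5 h of DRB.

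Colec11 (chr12:28594173-28623377, minus strand) encodes a collectin, a secreted lectin of the complement system, and had the largest ratio of the 10. It had 0.0687 reads per kb without drug, 11.9 at 2 h and 5.495 at 5 h of DRB, 0 at 1 h of triptolide and 0.0687 at 2 h. These values are 347 net reads after 2 h of DRB against 2 without drug, a ratio of 173.5 whose interval of 47.7 to 1438 reflects the small number of reads without drug. Colec11 lies 7.48 kb behind Rps7 on the same strand. Rps7, another small subunit protein gene, had 36.6 reads per kb after 2 h of DRB, against 123 without drug. Allc, the allantoicase gene 11.6 kb beyond Colec11 on that strand, was listed at 0 without drug and had 0.695 at 2 h and 1.77 at 5 h of DRB, so its value was higher at the later time.

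Fcgrt (chr7:45092990-45103851, minus strand) encodes the neonatal Fc receptor, which carries immunoglobulin G across cells and protects it from degradation. It had 0.646 reads per kb without drug, 13.3 at 2 h and 4.89 at 5 h of DRB, 0.369 at 1 h of triptolide and 0 at 2 h. The ratio at 2 h of DRB was 20.6 (9.73 to 52.1), from 144 net reads against 7. Gm45669, annotated as antisense, overlaps 5331 bases of Fcgrt, and whether counting used the strand is not given in the sources used here, so reads in that overlap cannot be assigned to 1 gene. The nearest gene behind it on the same strand, Rcn3, a calcium-binding protein of the secretory pathway, had 0.322 without drug, 2.26 at 2 h and 0.859 at 5 h of DRB.

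Vwce (chr19:10634213-10666213, plus strand) encodes a secreted protein with von Willebrand factor C and EGF-like domains, and is the only 1 of the 10 on the plus strand. It had 0.226 reads per kb without drug, 3.58 at 2 h and 2.39 at 5 h of DRB, 0.258 at 1 h of triptolide and 0.613 at 2 h. It lies 4.39 kb behind Ddb1, a subunit of ubiquitin ligases and of DNA damage recognition, which was at 9.96 after 2 h of DRB, against 16.9 reads per kb without drug. Ddb1 is the weakest of the strong neighbours described here. The antisense gene 4930524O05Rik overlaps 2364 bases of Vwce, with the same limit as for Fcgrt. Vwce was the only gene of the 10 with a triptolide interval above 1: after 2 h its ratio to no drug was 2.71 (1.09 to 7.64), from 19 net reads against 7.

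1700001P01Rik (chr11:97771481-97775918, minus strand), a gene known by its RIKEN clone name, had 2.70 reads per kb without drug, 12.2 at 2 h and 6.54 at 5 h of DRB, 0.225 at 1 h of triptolide and 0 at 2 h. It lies 1.61 kb behind Rpl23 on the same strand, and Rpl23, a large subunit protein gene, was at 36.9 after 2 h of DRB, against 113 without drug. The next gene on that strand, Cwc25, a splicing factor gene 4.92 kb further, was not higher, at 1.95 after 2 h of DRB, against 2.70 reads per kb without drug.

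Adamtsl4 (chr3:95676201-95687917, minus strand) encodes a secreted protein that associates with fibrillin microfibrils. It had 0.341 reads per kb without drug, 4.10 at 2 h and 2.73 at 5 h of DRB, 0.256 at 1 h of triptolide and 0.0854 at 2 h. With 48 net reads after 2 h of DRB, it has the fewest reads of the 10. It faces Mcl1, a short-lived anti-apoptotic Bcl2 relative, tail to tail across 13.0 kb. Mcl1 kept more of its signal than any other of the strong neighbours, with 93.8 reads per kb after 2 h of DRB, against 133 without drug.

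St5 (chr7:109523911-109703605, minus strand), a large gene for a DENN domain protein of Rab activation, differs from the rest in its time course. It had 1.20 reads per kb without drug, 3.44 at 2 h and 3.69 at 5 h of DRB, and 0 after both times of triptolide. Because it is long, it holds the most net reads, 642 at 2 h and 688 at 5 h of DRB, against 224 without drug. Rpl27a lies tail to tail with it at 1.54 kb and was at 21.7 after 2 h of DRB, against 163 reads per kb without drug, the largest loss among the strong genes described here that face with a 3′ end. The antisense gene Gm44864 overlaps 4081 bases of St5, again with that limit. The length behind the St5 values is 6777 bases longer than its span in GENCODE M21.

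Ccdc84 (chr9:44410159-44418569, minus strand) encodes a coiled-coil protein, and its human counterpart is a component of the minor spliceosome. It had 17.2 reads per kb without drug, 31.0 at 2 h and 10.6 at 5 h of DRB, 0.638 at 1 h of triptolide and 0.255 at 2 h. It had the highest value of the 10 without drug and the smallest ratio after 2 h of DRB, 1.80 (1.45 to 2.24). Its log2 difference of 0.81 is the only 1 of the 10 below 1. Its 3′ end overlaps that of Rps25 by 269 bases on the opposite strand, and Rps25 was at 50.5 after 2 h of DRB, against 90.7 reads per kb without drug. Reads in this overlap, too, cannot be assigned to 1 gene.

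**Figure D2:**
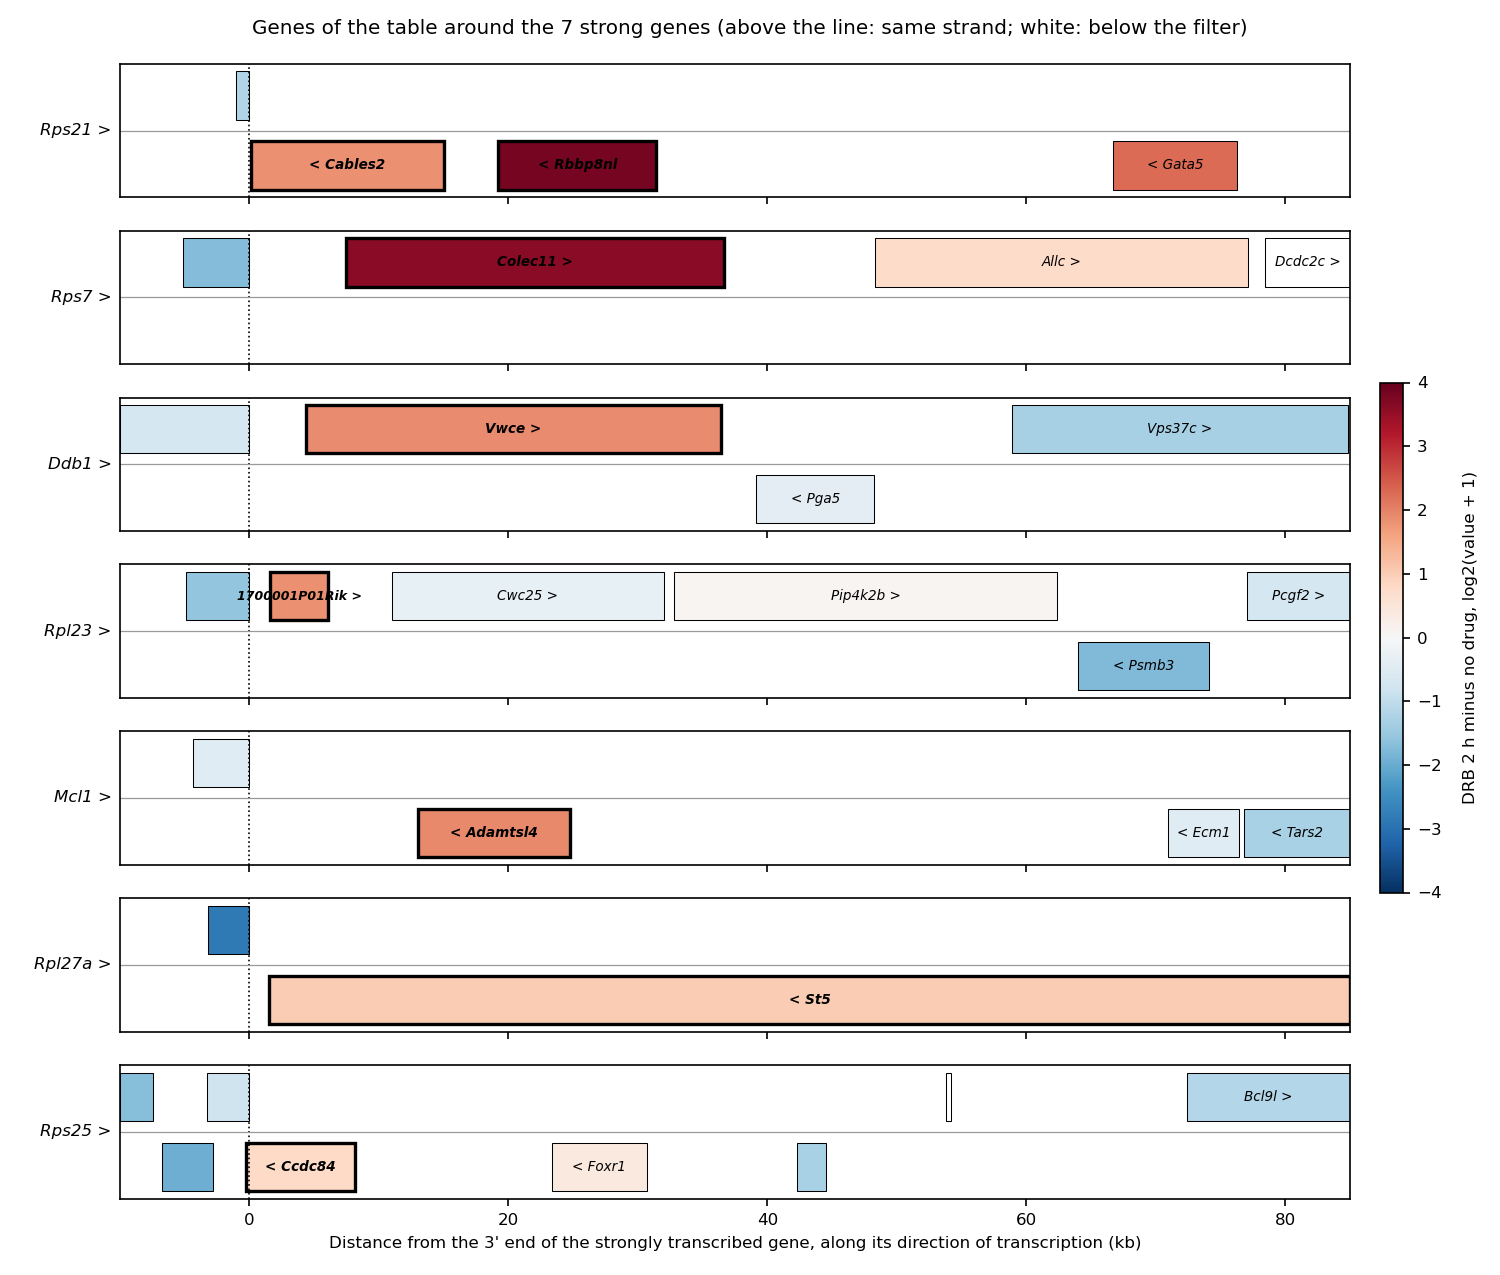
Genes of the table around 7 strong genes, by distance in kb from the 3′ end of the strong gene along its direction of transcription. Boxes above the line are on its strand and boxes below on the other, thick outlines mark the described genes, and colour is DRB 2 h minus no drug on the scale log2(value + 1). The strong genes to the left of 0 are blue (lower), the described genes are red (higher, paler for St5 and Ccdc84), and St5 runs beyond the right edge.

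Nlrp12 (chr7:3218784-3249740, minus strand) encodes an NLR protein that dampens inflammatory signalling in blood cells, and no strong protein-coding gene faces it with a 3′ end within 50 kb. It had 1.98 reads per kb without drug, 12.6 at 2 h and 6.48 at 5 h of DRB, 0.425 at 1 h of triptolide and 0.461 at 2 h. The ratio at 2 h of DRB was 6.36 (4.79 to 8.58), from 356 net reads against 56. Its annotated 3′ end overlaps the miR-290 to miR-295 cluster on the opposite strand, whose primary transcript is among the most abundant microRNA precursors of mouse embryonic stem cells. Of the 7 plus-strand loci of this cluster, 6 lie within the last 2058 bases of Nlrp12 as annotated in GENCODE M21. The values of Nlrp12 rest on a length of 28230 bases, against a span of 30957 in that annotation, so which of these loci lay inside the counted interval is not known, and the level of the microRNA transcript itself is not a row of this table. The cluster is shown because it overlaps the 3′ end of Nlrp12, and its part in the values of Nlrp12 was not tested. In the mature 3p arms below (RefSeq, GRCm38.p6), capitals mark the seed, bases 2 to 8. These 5 arms were picked for a seed that begins with AAGUGC, and 3 of them have AAGUGCU. Some other arms, such as miR-293-3p, have other seeds and are not shown. The 3p arm of the Mir292 locus was not among the arms examined and may share this start, so the 5 are not a complete set.
mmu-miR-290a-3p: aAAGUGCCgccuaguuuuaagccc
mmu-miR-291a-3p: aAAGUGCUuccacuuugugugc
mmu-miR-291b-3p: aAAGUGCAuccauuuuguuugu
mmu-miR-294-3p: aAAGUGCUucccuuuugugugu
mmu-miR-295-3p: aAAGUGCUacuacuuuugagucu

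Of the 9 genes other than Fcgrt, 8 thus had a strong gene, defined as one at or above the 90th percentile of no-drug values (14.7 reads per kb), whose 3′ end pointed at them from within 50 kb. Ccdc84, at 17.2, is itself above that level. These are 7 different genes, since Rps21 serves both Cables2 and Rbbp8nl, and 5 of the 7 encode ribosomal proteins. The strong gene was on the same strand for 3 of the genes and on the opposite strand for 5. A strong gene's 5′ end faced 2 of the 10 within 50 kb, Lasp1 for 1700001P01Rik and Myadm for Nlrp12. All 7 strong genes had lower values after 2 h of DRB than without drug. Of all genes past the filter with a position, 13.6% had a strong 3′ end facing them within 50 kb and 12.6% a strong 5′ end. The set was chosen partly for such neighbours, so its 8 of 9 is no evidence about them.

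**Figure D3:**
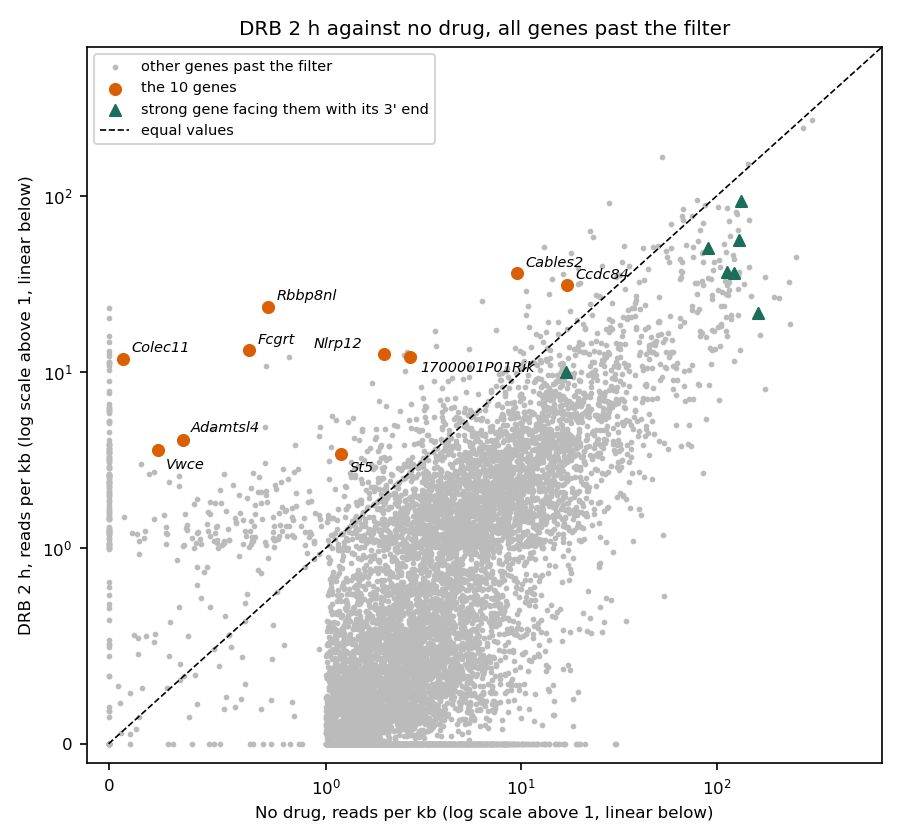
Value after 2 h of DRB (vertical) against no drug (horizontal) for all genes past the filter, in reads per kb, on axes that are linear below 1 and logarithmic above. The 10 genes (orange circles) lie above the dashed line of equal values and 7 strong genes that face 8 of them (green triangles) lie below it.

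The other genes of the table, with the 10 left out, show how common such a pattern is. Among genes past the filter with a strong gene within 10 kb, 3.33% (15 of 451) of those facing its 3′ end were higher after 2 h of DRB by at least 1 log2 unit, against 0.272% (1 of 368) of those facing its 5′ end and 1.94% (152 of 7842) of those with no strong neighbour. For genes on the same strand behind a strong gene the share was 4.21% (8 of 190), and for genes tail to tail with one it was 2.94% (8 of 272). The median log2 difference was negative in each of these classes, -1.09 for genes facing a strong 3′ end and -1.28 with no strong neighbour, so most genes in either position were lower. These shares are counts over neighbouring genes in 2 columns and were not tested.

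The share differed mainly at the highest neighbour levels. With a neighbour at or above 50 reads per kb without drug, 10.5% (9 of 86) of genes facing its 3′ end were higher, against 1.33% (1 of 75) facing its 5′ end. With a neighbour between 15 and 50 reads per kb the shares were 1.39% (5 of 361) and 0% (0 of 291), and between 5 and 15 reads per kb they were 1.13% (13 of 1147) and 2.06% (20 of 969). By distance, no gene that overlapped the facing 3′ end (0 of 108) or lay within 1 kb of it (0 of 107) was higher, against 5.26% (9 of 171) at 1 to 5 kb and 8.22% (6 of 73) at 5 to 10 kb. At 10 to 20 kb it was 0 of 69 for the 3′ end and 3 of 77 for the 5′ end. The distances of Cables2, Ccdc84 and Adamtsl4 fall in bins where 0 of the other genes were higher by that size. Ccdc84 itself did not reach it. Rbbp8nl is in none of the bins by distance to a strong 3′ end. The bins use the nearest gene on each side, and Cables2, which is below the strong level, lies between it and Rps21.

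**Figure D4:**
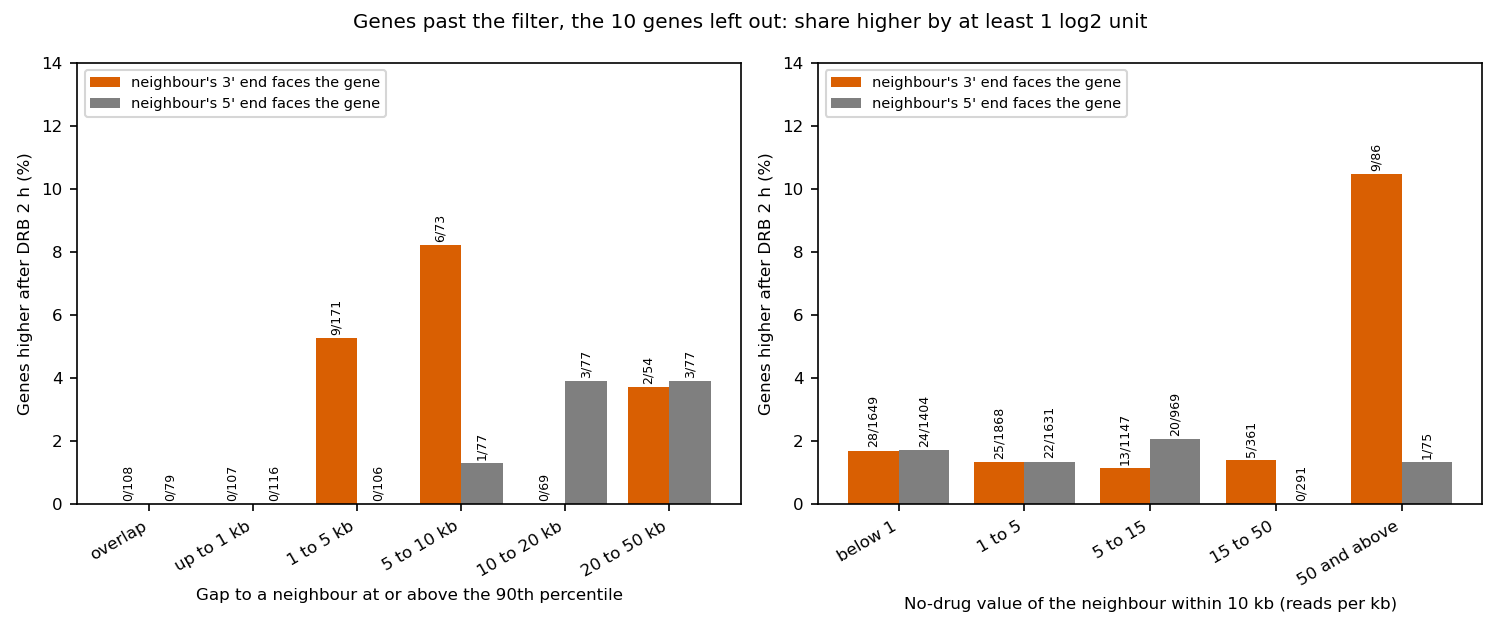
Percent of genes past the filter, the 10 described genes left out, that were higher after 2 h of DRB by at least 1 log2 unit (bars, with the counts above them). Left, by gap to a neighbour at or above the 90th percentile. Right, by the no-drug value of a neighbour within 10 kb. The tallest bar is the 10.5% of genes facing the 3′ end of a neighbour at or above 50 reads per kb.

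Genes behind the strongest neighbours did not all behave like Colec11. Of the 10 genes next behind the 10 strongest same-strand neighbours within 10 kb, Colec11, 1700001P01Rik and Cd79a were higher by 1 log2 unit. Cd79a, a B cell receptor subunit 7.57 kb behind Rps19, had 2.70 reads per kb after 2 h of DRB, against 0.208 without drug, from 13 net reads against 1. Fbxl18, an F-box gene behind Actb, had a ratio of 0.359 to its no-drug reads (0.278 to 0.460), and Gcn1l1, a translation regulator behind Rplp0, of 0.285 (0.219 to 0.366). Trim38, behind Hist1h1a, was listed at 0 in all 5 columns, and Msh4 behind Rabggtb had a ratio of 0.766 (0.517 to 1.13). The remaining genes were 2310014L17Rik with a ratio of 1.24 (0.808 to 1.92), Hist1h3b with 0.667 and Hist1h4d with 1.03, and the last 2 of these are histone genes that also rank among the strongly transcribed themselves.

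Among same-strand genes with at least 20 net reads after 2 h of DRB, the highest ratios after Colec11 and Vwce were those of Pnpla2 and Ifi35. Pnpla2, the triglyceride lipase of fat stores, had 4.87 reads per kb after 2 h of DRB, against 0.721 without drug, and lies 3.61 kb behind Rplp2. Ifi35, an interferon-induced gene 2.88 kb behind Rpl27, had 4.86 after 2 h of DRB, against 0.972 without drug. Those that followed include 1700001P01Rik, Isg20 (an interferon-induced exonuclease behind Aen, ratio 4.2), Chd5 (a neuronal chromatin remodeller behind Rpl22, 3.38), Pygm (muscle glycogen phosphorylase behind Sf1, 3.17) and Atp9a behind Sall4 (2.24).

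Tail to tail with a strong gene, Fxyd4, an ion transport regulator 7.94 kb from Hnrnpf, had 12.2 reads per kb after 2 h of DRB, against 0.832 without drug (ratio 14.7, 4.70 to 73.8). Klhl35, 3.87 kb from Rps3, had 17.1 after 2 h of DRB, against 3.62 without drug (4.72, 3.15 to 7.32). Zfp647, a zinc finger gene 4.06 kb from Rpl8, had a ratio of 3.09, and Rab19, 7.42 kb from Mkrn1, of 2.34. By contrast, Slc2a8 facing Rpl12, Gys1 facing Ftl1, Cand2 facing Rpl32, Iffo1 facing Gapdh and Slc35b2 facing Hsp90ab1 had lower values after 2 h of DRB than without drug, between 36.4% and 56.8% of their no-drug reads.

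After 5 h of DRB, 8 of the 10 genes were still higher than without drug by at least 1 log2 unit, where 1.03% of all genes past the filter were, and the median log2 difference was 1.40, against -1.86 over all genes, of which 85.5% were lower by that size and 0 of the 10 were. The 5 h column did not enter the choice of the genes, but it is compared with the same no-drug column, so the 2 comparisons are not independent. Rbbp8nl, Colec11, Fcgrt, Vwce and Adamtsl4 started below 1 read per kb without drug, where this scale cannot show a loss of that size. They also passed the filter only through the DRB columns, and all are among the 8. Nothing is therefore read from the 8 or the 0. For 9 of the 10 the interval of the ratio to no drug lay above 1. The share of all genes with such an interval was not computed. A value above no drug, whatever its interval, was found in 2.79% of genes past the filter. The choice of the genes favoured low no-drug reads, the denominators of these ratios. Rbbp8nl was at 13.8 times (7.03 to 30.8), Colec11 at 80 times (21.8 to 666), Vwce at 10.6 times (4.88 to 27.2) and Adamtsl4 at 8 times (2.84 to 31.1) its no-drug reads. Fcgrt was at 7.57, Nlrp12 at 3.27, St5 at 3.07, 1700001P01Rik at 2.42 and Cables2 at 1.35 times. As deposited, Ccdc84 alone was lower, at 0.615 times its no-drug reads (0.462 to 0.814), a log2 difference of -0.65. That direction turned with equal column medians (2.56) and with quantile normalization (2.48), under which all 10 were higher by at least 1. Together the 10 genes made up 1.74% of all net reads after 5 h of DRB.

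Between 2 h and 5 h of DRB the 10 genes kept a larger percentage of their net reads than the median gene. At 5 h they held between 34.2% (Ccdc84) and 107% (St5) of their 2 h reads, with a median of 48.8%. Over the 3774 genes with at least 20 net reads after 2 h, the median was 15.7%, and 1361 were listed at 0 after 5 h. The share above the lowest of the 10 was 30.4%, so such persistence is not confined to them. The 10 were chosen for a high 2 h value, which is the denominator of these percentages. In the comparison of 5 h with 2 h, 4 of the 10 genes passed the size rule downwards and 0 upwards, where 29.7% of all genes past the filter were lower by that size and 1.13% higher.

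At 5 h, the 8 genes with a reported facing strong gene each kept a larger percentage of their 2 h reads than that gene. In 4 of the 8 pairs the intervals did not overlap. Rps21 stands in the pairs of both Cables2 and Rbbp8nl, so the pairs are not all separate. How often other genes keep more than a strong gene facing them was not computed, so nothing is read from these counts. Vwce kept 66.7% (49.0 to 90.3), while Ddb1 was listed at 0 at 5 h after 241 net reads at 2 h. St5 kept 107% (96.1 to 120), while Rpl27a was listed at 0 after 70 net reads. Colec11 kept 46.1% (37.99 to 55.8) and Rps7 25.7% (18.3 to 35.4), and Adamtsl4 kept 66.7% (41.2 to 106) and Mcl1 32.5% (26.6 to 39.6). For Cables2 and Rbbp8nl with Rps21, 1700001P01Rik with Rpl23 and Ccdc84 with Rps25 the intervals overlapped.

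**Figure D5:**
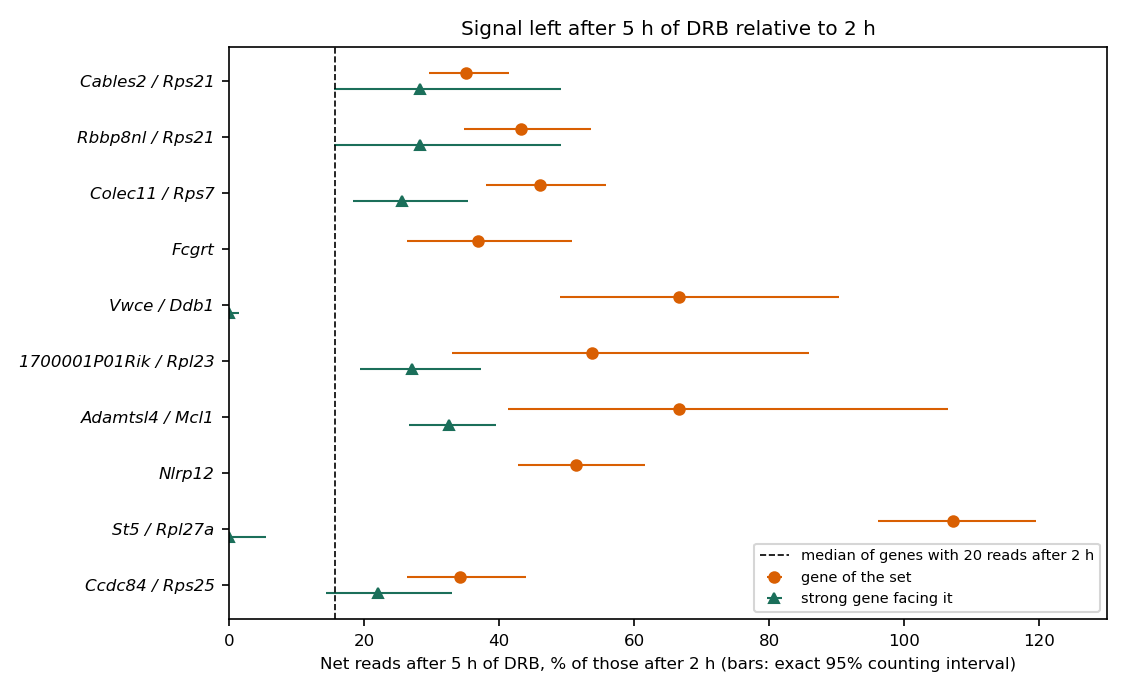
Net reads after 5 h of DRB in percent of those after 2 h, for each of the 10 genes (orange circles) and for the strong gene that faces it in 8 cases (green triangles). Bars are exact 95% counting intervals and the dashed line is the median of 15.7% over genes with at least 20 net reads after 2 h. Every circle lies to the right of the dashed line and of its triangle where there is one.

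As deposited, no rise of 1 log2 unit was counted after triptolide. For Rbbp8nl, Colec11, Fcgrt, Vwce and Adamtsl4 the filter excluded such a rise. They passed it only through the DRB columns, so their triptolide values were at most 1. Nothing is therefore read from the 0 that follows. After 1 h and after 2 h, 0 of the 10 genes were higher than without drug by 1 log2 unit, where 0.787% and 0.866% of all genes past the filter were, and 5 were lower at each time, where 87.9% and 87.0% were. The genes held 38 net reads in sum at each triptolide time, against 598 without drug. The 5 lower genes at each time were Cables2, 1700001P01Rik, Nlrp12, St5 and Ccdc84, those with most signal without drug. The other 5 started below 1 read per kb without drug, where the log2(value + 1) scale cannot show a loss of that size. St5 is the clearest case at depth, with 0 net reads at both triptolide times, against 224 without drug. Scalings that equalise the columns change this picture. With equal medians, 5 of the 10 were higher by at least 1 log2 unit after 1 h of triptolide, namely Rbbp8nl (1.61), Fcgrt (1.83), Vwce (1.85), Adamtsl4 (1.71) and Nlrp12 (1.15), and 2 after 2 h, Nlrp12 (1.30) and Vwce (2.95). Quantile normalization gave the same 5 and 2 genes. The direction turned for 5 genes at 1 h and 2 at 2 h with equal medians, and for 7 and 5 with quantile normalization. Cables2 and Ccdc84 stayed below their no-drug values at both times under both scalings. As deposited, Nlrp12 kept 21.4% of its no-drug reads after 1 h (10.5 to 40.4) and 23.2% after 2 h (11.6 to 43.0).

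The drugs were also compared directly, as deposited. After 5 h of DRB all 10 were higher than after 2 h of triptolide by at least 1 log2 unit, where 6.86% of all genes past the filter were, although the times differ. At the matched time of 2 h all 10 were higher after DRB than after triptolide by that size, where 33.2% of all genes were. The genes were chosen for a high value after 2 h of DRB, and 5 of them passed the filter only through the DRB columns, so nothing is read from either count. The smallest of these differences was that of Vwce, 1.51 at the matched time and 1.07 with 5 h of DRB, and the largest that of Cables2, 5.13 and 3.69 on the log2 scale.

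The distribution of each gene's net reads over the 5 columns was compared with the mean of the 10, which has 9.46% without drug, 57.9% at 2 h and 29.96% at 5 h of DRB, and 1.41% at 1 h and 1.28% at 2 h of triptolide. Nlrp12 lay closest to this mean and Ccdc84 farthest from it. Among the other genes with at least 20 net reads after 2 h of DRB, Klhl35, Myo1g (a myosin of blood cells), Fxyd4, Odf3 (a sperm tail protein) and Rcn3 were nearest, by the Euclidean distance of these shares over the 5 columns. Klhl35 and Fxyd4 have a strong gene's 3′ end facing them within 50 kb (Rps3 and Hnrnpf), and Myo1g and Odf3 have none.

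Relatives of the 10 genes were mostly below the filter. Of 42 listed family members (other collectins, NLR, Fc receptor, ADAMTS-like, DENN domain and related genes), 5 passed the filter, 0 were higher after 2 h of DRB by 1 log2 unit, where 2.20% of all genes were, and 2 were lower. Dennd2c, a DENN domain relative of St5, had 0.491 reads per kb after 2 h of DRB, against 4.02 without drug. B2m, the partner chain of the receptor encoded by Fcgrt, had 0.185 after 2 h of DRB, against 1.67 without drug. Cables1 and Rbbp8, the namesakes of Cables2 and Rbbp8nl, were at 0.0188 and 0.0273 after 2 h of DRB, against 0.320 and 0.273 without drug, all below the filter.

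The promoters of the 10 genes differed in base composition. RefSeq windows (GRCm38.p6, 250 bases before to 50 after the start) were matched for 7 of the 10, and the number of CG dinucleotides was 43 in Cables2, 24 in Adamtsl4 and in Ccdc84, 13 in Vwce, 5 in Fcgrt and in Nlrp12 and 3 in Colec11. The median was 14 over all table genes with a window and 21 over those past the filter. The 2 ends of this range are shown because both genes lie beside a ribosomal protein gene, with CG in capitals. The windows are chr2:180273416-180273715 for Cables2 and chr12:28623281-28623580 for Colec11, both on the minus strand.
Cables2: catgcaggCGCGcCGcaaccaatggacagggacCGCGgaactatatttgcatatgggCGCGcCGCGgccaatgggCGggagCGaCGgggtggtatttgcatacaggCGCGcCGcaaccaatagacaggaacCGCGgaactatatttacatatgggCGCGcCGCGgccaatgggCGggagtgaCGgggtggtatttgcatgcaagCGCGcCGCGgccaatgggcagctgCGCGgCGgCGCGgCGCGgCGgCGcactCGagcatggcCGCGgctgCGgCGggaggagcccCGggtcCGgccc
Colec11: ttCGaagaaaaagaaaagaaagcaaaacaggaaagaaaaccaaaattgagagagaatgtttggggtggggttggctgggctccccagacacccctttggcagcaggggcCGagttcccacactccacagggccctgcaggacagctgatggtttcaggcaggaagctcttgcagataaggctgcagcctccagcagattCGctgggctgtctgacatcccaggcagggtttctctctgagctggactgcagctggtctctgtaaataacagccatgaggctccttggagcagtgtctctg
The letters TATAAA, searched on both strands, were in 0 of the 7 windows. They were in 12.7% of all windows and in 6.52% of the windows of genes past the filter. GGGCGG, also on both strands, was in 4 of the 7, in 47.7% of all and in 65.9% of the windows of genes past the filter. A match or its absence in these windows says nothing about the factor that binds such letters.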

How the data were processed

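Newly made RNA was captured from 10 labelled and 10 unlabelled samples, in 10 groups of 2 by drug, time and labelling as the labels give them. Bowtie and the build GRCm38/mm10 are named in the submitters' processing notes, and Ensembl 72 is the gene set per the file headers. The deposited signal is a number of reads per kilobase of each protein-coding gene, in 1 column per condition, with negative values set to 0 by the authors. How the authors combined replicates, subtracted unlabelled libraries or equalised depth, and whether counting used the strand, is not given in the sources used here.

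Each gene's 5 values are whole multiples of what 1 read is worth at its length, which gave net reads (within 0.001 reads) for 16767 of the 17512 genes with signal. For 10912 genes the length was the GENCODE M21 span and for 5855 it was the fitting length nearest to that span, within 20%; 745 have no net reads. Positions are from GENCODE M21 and exist for 21800 genes. Depth per sample is unknown, so the recovered net reads per condition are the only measure of precision. The recovered reads are whole numbers in every column and show no fractional depth factor. A difference in depth between conditions would therefore enter the totals, the log2 differences and the ratios.

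The 8773 genes that exceeded 1 in some column were compared as log2(value + 1), where a fold of low genes is understated, and a difference of at least 1 is the size rule for higher and lower. A limma test had been planned for replicate columns, and with a single column for each condition none was made. Ratios of net reads have exact (Clopper-Pearson) 95% Poisson intervals. Recovery, intervals and the size rule were tested on simulated data. The scripts used Python 3.11.15, numpy 2.4.6, pandas 2.3.3, scipy 1.17.1 and matplotlib 3.10.9. Shares by neighbour use the nearest table gene on each side within 10 kb.

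Genes named besides the 10 follow a rule: nearest neighbours, facing strong genes, the 5 most alike genes, the 10 behind the strongest neighbours, the 10 highest ratios behind a strong neighbour, and relatives past the filter. Cables1 and Rbbp8, and the tail-to-tail genes, were added after their values were seen. The 10 genes and the lists were chosen with earlier results of these data known. Alternatives were other pseudocounts, scalings, filters, gaps and thresholds. Some neighbouring genes that the rules above pick are not reported here, but they stay in the counts over all genes.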

Additional observations from a re-analysis of the deposited data

How the results depend on the processing

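No paired analysis was possible because the table has 1 column per condition and no replicate columns, and for the same reason leaving out a replicate could not be run. Equal column medians and quantile normalization raise the median of all genes for DRB 2 h against no drug by 1.02 and 1.25 log2 units, since they bring the columns to a common level by construction. Because the 10 genes were chosen for a higher value after 2 h of DRB, a pseudocount cannot change a sign and both scalings raise the DRB column, their direction in that comparison was fixed and shows no stability.

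With a pseudocount of 10, which compresses low values by construction, 4 of the 10 genes were higher at DRB 2 h (median 0.86) and 0 at DRB 5 h (median 0.34), and 1 was lower at each triptolide time. With a pseudocount of 0.1, 8 were lower after 2 h of triptolide. With equal medians the median of the 10 genes was 3.72 at 2 h and 4.38 at 5 h of DRB and 0.62 after 1 h of triptolide, where 2 genes were lower. With quantile normalization it was 3.77 after 5 h of DRB, 1.26 after 1 h of triptolide (0 genes lower) and 0.31 after 2 h (1 lower). At 1 h of triptolide the direction turned for 1700001P01Rik (0.10 with equal medians and 0.95 with quantile normalization), Nlrp12 (1.15 and 1.57), Rbbp8nl (1.61 and 1.72), Fcgrt (1.83 and 1.84) and Adamtsl4 (1.71 and 1.65), and with quantile normalization for St5 (0.24) and Colec11 (0.54). At 2 h it turned for Nlrp12 (1.30 and 1.47) and Adamtsl4 (0.70 and 0.98), and with quantile normalization for St5 (0.17), Rbbp8nl (0.29) and Fcgrt (0.32). The 0 of 10 genes higher by 1 log2 unit became 5 at 1 h and 2 at 2 h under either scaling, and 1 (Vwce) at 2 h with a pseudocount of 0.1. At 5 h of DRB the direction turned for Ccdc84 (2.56 and 2.48).

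Over all genes, 298, 25, 1148, 656 and 45 were higher after 2 h of DRB with a pseudocount of 0.1, a pseudocount of 10, equal medians, quantile normalization and a filter of 20 net reads, in that order. In the same order the numbers for DRB 5 h were 148, 1, 1007, 1303 and 28, those for triptolide 1 h were 106, 1, 877, 1602 and 13, and those for triptolide 2 h were 133, 4, 1007, 1458 and 8. Lower after 2 h of DRB were 644 with a pseudocount of 10, 2026 with equal medians and 560 with quantile normalization.

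With the 10 genes included, the share higher after 2 h of DRB was 5.70% of genes behind a strong gene on the same strand, 4.38% of genes facing a strong 3′ end and 0.272% of genes facing a strong 5′ end. With strong defined at the 75th percentile the 3 shares were 2.74%, 2.42% and 1.66%, and at the 95th percentile the 3′ share was 7.46%. The 5′ share was 0% with a gap of up to 5 kb and 1.54% with up to 50 kb. Without genes that overlap another annotated gene the 3′ share was 7.43% and the 5′ share 0%. A pseudocount of 0.1 gave a 3′ share of 6.78%. Equal medians gave 37.3%, 28.9% and 21.5%, and quantile normalization 26.4%, 19.5% and 9.78%. The median log2 difference of genes behind a strong gene on the same strand was -0.98, and it was -1.28 with a pseudocount of 0.1, -0.78 without a filter, 0.52 with equal medians and 0.33 with quantile normalization. The 3′ share was above the 5′ share under each alternative run, but nearly all of these kept the 10 genes, which were chosen partly for such neighbours. Without the 10 it was 3.33% against 0.272% in the main setting. Also without them, the order was the reverse for neighbours at 5 to 15 reads per kb (1.13% against 2.06%). The same held at gaps of 10 to 20 kb (0% against 3.90%). Apart from the shifts that the scalings and pseudocounts make by construction, the cause of these changes was not tested. Depth limits Colec11, Adamtsl4, Vwce, Fcgrt and Rbbp8nl most, which have fewer than 10 net reads without drug.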

Other observations

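Rps19bp1, a gene tail to tail with Atf4 at 3.07 kb, was like the 10 genes after DRB but not after triptolide. It had 17.9 reads per kb without drug, 47.7 at 2 h and 20.9 at 5 h of DRB, and 29.0 at 1 h and 24.1 at 2 h of triptolide. Adamtsl5, a relative of Adamtsl4, had similar values in all 5 columns: 4.09 without drug, 5.05 at 2 h and 2.90 at 5 h of DRB, and 3.66 at 1 h and 4.52 at 2 h of triptolide. Chd5 behind Rpl22 and Allc beyond Colec11 had higher values after 5 h than after 2 h of DRB: Chd5 had 1.57 reads per kb after 2 h and 2.29 after 5 h. These genes were singled out after their values were seen, and no test was made.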
